A study of Homo sapiens with 6 samples.

Results

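The nuclear-encoded subunits of the respiratory chain were examined complex by complex in SK-N-BE(2) cells, a MYCN-amplified human neuroblastoma line, after small interfering RNA (siRNA) knockdown of Prp19, the pre-mRNA processing factor encoded by PRPF19. RNA-seq libraries came from 2 groups of 3 samples, cells that received the negative control siRNA (NC) and cells that received the siRNA against Prp19 (siPrp19), both in medium with fetal bovine serum. The sample labels give 72 h of transfection for all 6 samples, whereas the methods of the study give a shorter time. Both groups were the same single line, and the siRNA lowers the PRPF19 transcript while the gene itself is intact. The values were FPKM, fragments scaled to exon length and to library depth. A gene belonged to the set if it was protein-coding, lay outside the mitochondrial genome, had a GENCODE 29 symbol of the NDUFA, NDUFB, NDUFC, NDUFS, NDUFV, SDHA to SDHD, UQCR, COX4 to COX8 or ATP5 families, and reached a mean of 1 FPKM over the 6 samples. The symbols matched 90 of 58302 genes in the files, and 82 passed the level filter, which 14462 genes passed in all. These were 38 of 39 genes of complex I, 4 of 4 of complex II, 9 of 9 of complex III, 12 of 17 of complex IV and 19 of 21 of complex V. Levels played a part in the choice only through that filter on the mean of all samples. Nothing in it used the difference between the groups.

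PRPF19 itself was at 53.1, 53.1 and 64.9 FPKM in NC and at 21.8, 28.5 and 33.6 FPKM in siPrp19, so the groups did not overlap. The mean log2 difference within same-numbered pairs was -1.04, or 51.5% lower. With 3 samples against 3, no exact permutation test, two-sided, can give a p below 0.1, which PRPF19 reached. Reads assigned to genes ranged from 19058784 to 24181789 per sample. All 8 adrenergic neuroblastoma markers checked were expressed, with a summed level of 2011 to 2129 FPKM in NC and 1896 to 2438 FPKM in siPrp19. The Schwann cell factor SOX10 was listed at 0 in all samples. Same-numbered samples of the 2 groups deviated together from their group means, so differences are given within same-numbered pairs. Nothing in the labels says that the 3 samples of a group were separate cultures, although the study's methods call them biological replicates. If they were not, the p-values measure technical spread only.

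The respiratory chain lies in the inner mitochondrial membrane. Complex I oxidises NADH and complex II oxidises succinate, and both pass electrons to ubiquinone. Complex III hands them on to cytochrome c, complex IV reduces oxygen, and complex V, the ATP synthase, uses the resulting proton gradient to make ATP. Mitochondrial DNA encodes a few core subunits of complexes I, III, IV and V, and the nucleus encodes the others and all of complex II, so the genes described here supply most of the chain. Many of their promoters are known to be bound by nuclear respiratory factor 1 (NRF1), by the ETS-family factor GABP, also called NRF2, and by YY1.

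The motif letters of these factors were more frequent in promoters of members than over all promoters, but not every member carried them. A window of 250 bases before to 50 bases after the transcription start was matched for 66 of the 82 members from RefSeq (GRCh38.p14). The motifs were searched on both strands, GCGCNTGCG for NRF1, CCGGAAG for ETS factors and AAGATGGC for YY1. The NRF1 letters stood in 21 of the 66 windows (31.8%), against 7.47% of all 35116 promoter windows and 13.2% of the 13173 windows of protein-coding genes that passed the level filter. The ETS letters stood in 20 windows (30.3%, against 10.3% and 17.4%), and the YY1 letters in 12 (18.2%, against 2.89% and 4.99%). At least 1 of the motifs was found in 41 windows (62.1%), and in 18.3% of all windows and 30.9% of those of the filtered genes. By complex, windows with at least 1 motif numbered 18 of 32 in complex I, 3 of 3 in complex II, 6 of 7 in complex III, 5 of 10 in complex IV and 9 of 14 in complex V. YY1 letters were found in 7 windows of complex I and in 0 of 10 windows of complex IV. A match of letters is not evidence of binding. The promoters of SDHA and SDHD are shown because both hold NRF1 letters several times and SDHD carries the most negative difference of the set. Those of ATP5PF, ATP5PB and ATP5MC2 are shown as complex V genes with positive differences whose windows differ in motif content. They run 5′ to 3′ along the gene's strand, with motif letters in capitals, at chr5:218070-218369, plus strand (SDHA), chr11:112086623-112086922, plus strand (SDHD), chr21:25734855-25735154, minus strand (ATP5PF), chr1:111449214-111449513, plus strand (ATP5PB) and chr12:53676281-53676580, minus strand (ATP5MC2).
SDHA: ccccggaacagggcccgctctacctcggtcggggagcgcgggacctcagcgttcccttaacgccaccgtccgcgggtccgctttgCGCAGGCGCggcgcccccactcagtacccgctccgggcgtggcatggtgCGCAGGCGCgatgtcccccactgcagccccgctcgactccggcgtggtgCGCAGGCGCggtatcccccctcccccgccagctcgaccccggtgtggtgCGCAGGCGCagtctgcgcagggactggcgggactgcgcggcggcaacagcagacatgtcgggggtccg
SDHD: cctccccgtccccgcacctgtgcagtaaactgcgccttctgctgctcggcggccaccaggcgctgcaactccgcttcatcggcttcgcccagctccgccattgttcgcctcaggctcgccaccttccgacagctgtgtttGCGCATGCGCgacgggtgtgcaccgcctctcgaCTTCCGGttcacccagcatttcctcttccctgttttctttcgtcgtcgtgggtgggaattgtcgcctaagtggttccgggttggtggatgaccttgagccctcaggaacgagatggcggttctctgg
ATP5PF: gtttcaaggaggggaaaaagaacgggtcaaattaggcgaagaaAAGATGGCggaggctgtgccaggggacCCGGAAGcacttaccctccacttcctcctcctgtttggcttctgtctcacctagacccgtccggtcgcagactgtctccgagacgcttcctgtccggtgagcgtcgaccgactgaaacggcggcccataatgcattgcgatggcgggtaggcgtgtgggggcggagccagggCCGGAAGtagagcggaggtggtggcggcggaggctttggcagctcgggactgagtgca
ATP5PB: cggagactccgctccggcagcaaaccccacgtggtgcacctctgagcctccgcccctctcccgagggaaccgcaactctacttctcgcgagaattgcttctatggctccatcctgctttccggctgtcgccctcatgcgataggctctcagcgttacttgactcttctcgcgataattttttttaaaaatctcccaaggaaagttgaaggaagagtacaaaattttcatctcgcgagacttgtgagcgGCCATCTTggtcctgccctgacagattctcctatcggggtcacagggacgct
ATP5MC2: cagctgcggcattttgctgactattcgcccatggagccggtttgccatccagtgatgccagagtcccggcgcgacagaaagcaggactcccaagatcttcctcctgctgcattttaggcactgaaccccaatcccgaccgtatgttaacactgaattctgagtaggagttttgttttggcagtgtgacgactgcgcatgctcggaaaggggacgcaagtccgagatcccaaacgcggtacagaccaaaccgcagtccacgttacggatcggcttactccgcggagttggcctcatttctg
The SDHA window held the NRF1 letters 4 times. In SDHD, 2 overlapping NRF1 matches, 1 on each strand, lay beside 1 ETS match. ATP5PF had 2 ETS matches and 1 YY1 match, ATP5PB 1 YY1 match, and ATP5MC2 had none of the 3 in this window. The transcription start of the ATP5PB window lay 528 bases from that of the GENCODE transcript chosen for the gene. Windows with the NRF1 letters had a median siPrp19 minus NC difference of -0.02 on the log2 scale and those without them 0.07. The medians with and without the letters were -0.008 and 0.06 for YY1, and 0.04 and 0.05 for ETS. For any of the 3 motifs they were 0.01 and 0.07. The order was thus not particular to NRF1, and these descriptions were not tested.

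Except in complex II, the level of the subunit genes differed more between members of a complex than the medians differed between complexes. The median over members of the mean FPKM was 17.3 in complex I, 14.4 in complex II, 24.6 in complex III, 52.9 in complex IV and 29.7 in complex V, against 5.76 over all genes that passed the filter. The highest members by FPKM were ATP5F1B, the catalytic beta subunit of ATP synthase (mean 298 FPKM), NDUFS5, an accessory subunit of complex I (242), COX8A of complex IV (203) and UQCRH, the hinge protein of complex III (163). This order depends on annotation, because FPKM divides by the length of all annotated exons of a gene. Relative to 1 representative transcript, that length was 1.26-fold for ATP5F1B, 1.01-fold for NDUFS5 and 2.33-fold for UQCRH. It was equal for COX8A but 6.77-fold for COX4I1. The 4 genes of complex II spanned only 6.84 to 16.4 FPKM, whereas complex I ran from 1.08 FPKM for NDUFV2 to 242 FPKM for NDUFS5.

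**Figure D1:**
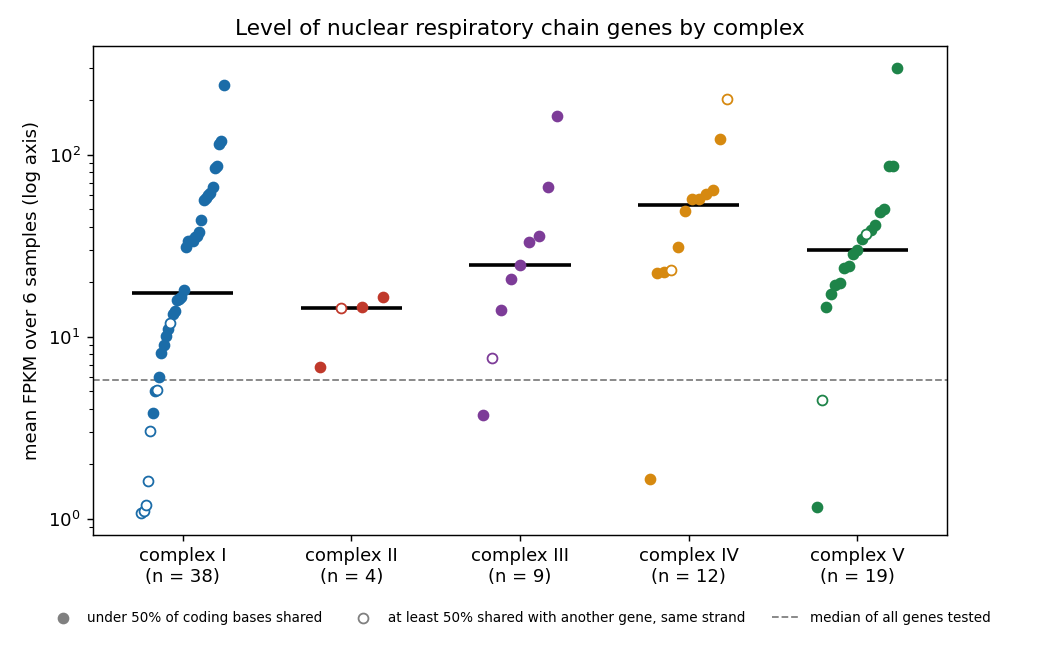
Mean FPKM over the 6 samples (vertical log axis) of each of the 82 member genes, by complex, sorted within the complex, with black lines at the complex medians (17.3, 14.4, 24.6, 52.9 and 29.7 FPKM) and a dashed line at the median of all genes tested (5.76 FPKM). Open circles are the 13 members with at least 50% of their coding bases inside exons of another gene on the same strand, among them the 5 lowest members of complex I.

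The 5 lowest members of complex I, 1 core subunit and 4 accessory subunits, were genes whose exons are shared with another annotated gene, which limits how their FPKM can be read. In all, 13 members had at least 50% of their coding bases inside exons of another gene on the same strand in GENCODE 29. NDUFV2, a flavoprotein subunit that holds an iron-sulfur cluster, averaged 1.08 FPKM with 100% of its coding bases shared. NDUFA9 averaged 1.10 FPKM (85.1% shared), NDUFA7 1.19 (100%), NDUFA13 1.60 (98.4%) and NDUFA11 3.02 (74.0%). The exon length of NDUFA11 was also 8.98 times its representative transcript, which can lower its FPKM. ATP5PO, the oligomycin sensitivity protein of the ATP synthase stalk, averaged 4.51 FPKM with 69.0% shared. Windows of 75 bases along the representative transcript that also occur in transcripts of other genes were a smaller share. They made up 81.4% for NDUFV2, 12.9% for NDUFA9, 75.3% for NDUFA7, 39.7% for NDUFA13, 61.9% for NDUFA11 and 68.1% for ATP5PO. How far shared reads lower these levels was not tested. Reads that match 2 genes can be left uncounted or split, and how they were counted is not given in the sources used here. The median level of these 13 members was 5.11 FPKM and that of the other 69 was 32.9 FPKM. COX8A, with 55.1% shared and 203 FPKM, and ATP5MG, with 68.9% shared and 36.7 FPKM, were above the median of the other 69.

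Of the tissue isoforms of complex IV, COX4I2 alone passed the level filter, at a mean of 1.66 FPKM or 1.04% to 6.69% of COX4I1. The exon length of COX4I2 equals its representative transcript, whereas that of COX4I1 is 6.77 times its own. Ratios between genes in this paragraph depend on such lengths. The muscle form COX6A2 and COX7B2 were listed at 0 in all 6 samples, while COX6A1 ran from 19.9 to 27.3 FPKM and COX7B from 20.5 to 24.5 FPKM. COX7A1, the heart and muscle form, lay between 0.28 and 0.83 FPKM, or 0.47% to 1.41% of COX7A2. COX6B2 was at 0.04 to 0.13 FPKM and COX8C at 0.47 to 0.90 FPKM, which together with the readthrough genes NDUFC2-KCTD14 and ATP5MF-PTCD1 and the retrogene ATP5MGL makes the 8 genes under the filter. ATP5MGL ran from 0 to 0.55 FPKM, NDUFC2-KCTD14 from 0 to 0.06 FPKM and ATP5MF-PTCD1 from 0 to 0.08 FPKM. Among the 3 genes for the membrane ring subunit c of ATP synthase, which encode the same mature protein, ATP5MC2 gave 43.6% to 59.7% of the summed FPKM, ATP5MC1 19.3% to 32.7% and ATP5MC3 18.9% to 23.9%. UQCRHL, an intronless copy of UQCRH that can share its reads, stood at 1.89% to 2.77% of UQCRH and its value is uncertain for that reason.

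The complexes differed little between NC and siPrp19, and no member passed the test across all genes. In bulk RNA a lower level in every cell cannot be told apart from fewer cells that express a gene. The mean within-pair difference, siPrp19 minus NC on the log2(FPKM + 0.1) scale, had a median of 0.07 in complex I, -0.02 in complex II, 0.05 in complex III, 0.03 in complex IV and 0.07 in complex V, against -0.004 over all 14462 genes. In limma's moderated test with Benjamini-Hochberg adjustment over all genes, 0 of 82 members had an adjusted p under 0.05 and 0 had an unadjusted p under 0.05. The backgrounds over all genes were 0% and 1.56%. PRPF19 also missed the threshold in that fit (log2 difference -1.04, SE 0.19, adjusted p = 0.9999), so an absent call there does not show that a gene did not change. With the replicate number as a block, 0 members passed the adjusted threshold, and 12 members had an unadjusted p under 0.05 beside 15.7% of all genes. Of these 9 were higher in siPrp19 (background 6.89%) and 3 lower (background 8.77%). With the block and a filter at 5 FPKM in place of 1, the fit called 1.57% of all genes and 0 members. A paired fit on the read counts recovered from FPKM (limma voom with the replicate block) called 4 of the 80 members it could use, 3 higher and 1 lower, beside 7.67% of all 13705 genes in it. The shares of all genes called there were 3.48% higher and 4.19% lower. The 4 members were called in none of the other fits that were run.

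The sizes were small for members compared with all genes tested. Members also lay at higher levels, with a median of 26.6 FPKM against 5.76 over all genes. No background of genes at like level was used, so level and membership cannot be told apart here. SDHD and NDUFV2 differed by over 1.2-fold in the mean of the pairs, 2 of 82 members, where 16.4% of all genes did, and 0 members differed by over 1.5-fold, where 4.11% of all genes did. More members lay above 0 than below it, 57 of 82 (69.5%) against a background of 49% of all genes. Higher in 3 of 3 pairs were 27 members (32.9%, background 19.2%), and lower in 3 of 3 pairs were 11 (13.4%, background 21.3%). By complex the counts of members higher and lower in 3 of 3 pairs were 9 and 2 of 38 in complex I, 2 and 2 of 4 in complex II, 2 and 2 of 9 in complex III, 4 and 2 of 12 in complex IV, and 10 and 3 of 19 in complex V. In 4 members all siPrp19 samples lay above all NC samples (COX5B, ATP5F1C and ATP5PB among them, background 2.77%), and in 0 members all lay below (background 2.84%).

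**Figure D2:**
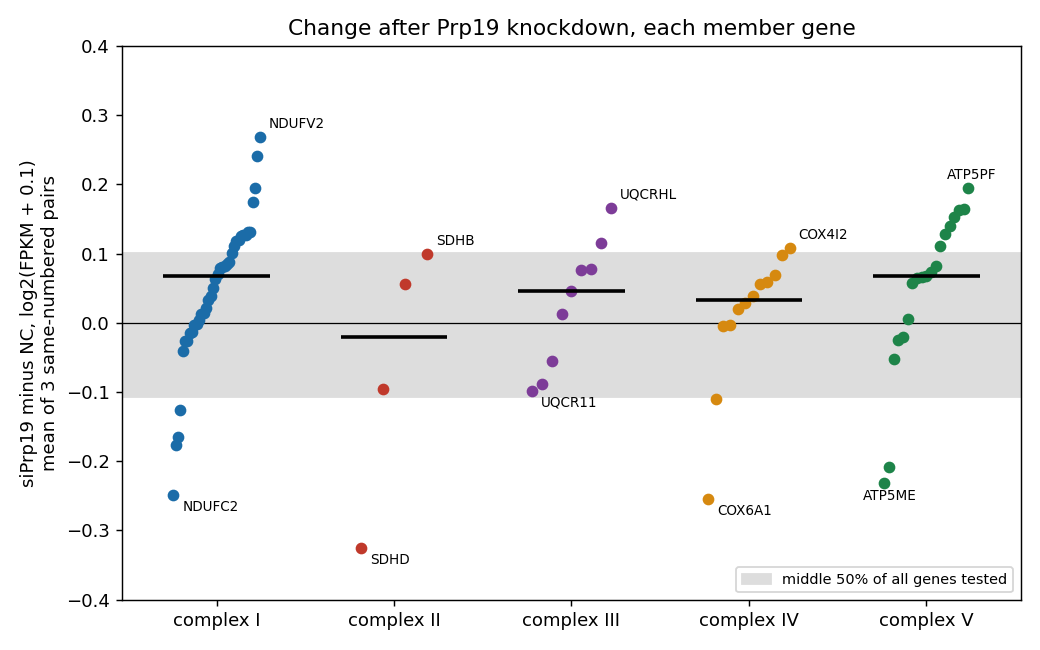
Mean over the 3 same-numbered pairs of siPrp19 minus NC on the log2(FPKM + 0.1) scale (vertical axis) for each member gene, by complex, with black lines at the complex medians and a grey band for the middle 50% of all genes tested. Most members sit inside the band, and SDHD at -0.32 and NDUFV2 at 0.27 are the lowest and the highest of the 82.

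The pairs did not give the same answer for every complex. In pair 1 the median over all genes was -0.02, and the medians of complexes I to V were -0.01, -0.07, -0.015, 0.001 and 0.02. In pair 2 they were 0.08, -0.02, 0.07, 0.03 and 0.08, with -0.004 over all genes. In pair 3 they were 0.11, -0.02, 0.04, 0.05 and 0.05, with 0.01 over all genes. Complex II was thus below 0 in each pair and complexes IV and V above it, while complexes I and III were below 0 in pair 1 only. With the whole of pair 3 left out, the medians were 0.03, -0.02, 0.04, 0.004 and 0.08. Leaving out single libraries breaks the pairing: without siPrp19 replicate 3 but with its NC partner kept, the median was -0.02 in complex I, -0.01 in complex IV and -0.02 in complex V. Without NC replicate 3 alone it was 0.15 in complex V and 0.03 in complex II.

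**Figure D3:**
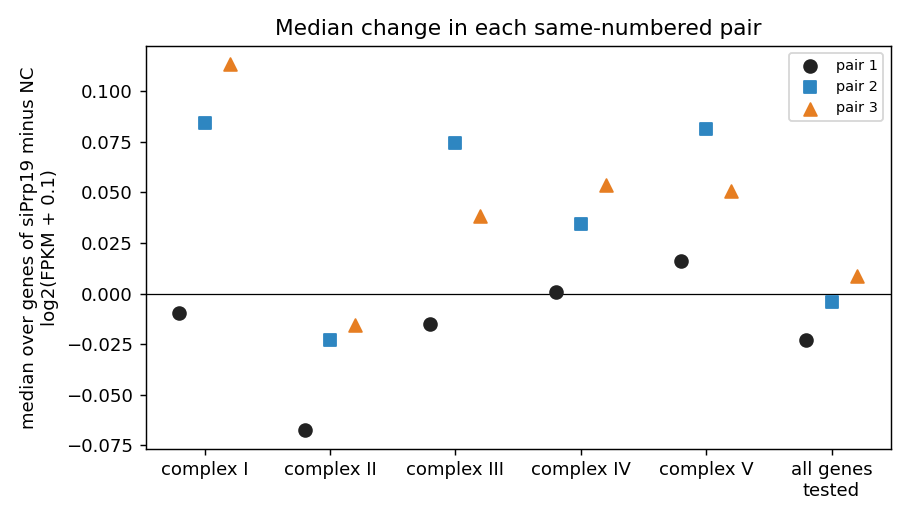
Median over member genes of siPrp19 minus NC on the log2(FPKM + 0.1) scale (vertical axis) in each same-numbered pair, for complexes I to V and for all genes tested. Circles are pair 1, squares pair 2 and triangles pair 3, and pair 1 is lowest in each complex while complex II lies below 0 throughout.

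Complex I oxidises NADH in a matrix arm and pumps protons in a membrane arm. NDUFA8, an accessory subunit on the intermembrane side, was at 49.4, 51.7 and 66.0 FPKM in NC and 59.2, 59.1 and 72.3 FPKM in siPrp19. It was higher in 3 of 3 pairs although the groups overlapped (log2 difference 0.19, adjusted p = 0.065 in the paired fit on reads). NDUFV2 had the most positive difference of the set, 0.27, from values of 0.78, 1.49 and 0.71 FPKM in NC and 1.04, 1.45 and 1.01 FPKM in siPrp19. The groups overlapped, pair 2 went the other way, and the value rests on 46 reads in NC replicate 1.

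The members of complex I with the most negative differences were accessory subunits with shared exons. NDUFC2 was at 11.3, 10.7 and 16.2 FPKM in NC and at 7.47, 10.0 and 15.5 FPKM in siPrp19, a log2 difference of -0.25 of which pair 1 gave -0.59. NDUFB8 was at 6.10, 4.46 and 5.69 FPKM in NC and 4.7996, 3.87 and 5.73 FPKM in siPrp19. NDUFA11 was at 3.68, 2.68 and 3.14 FPKM in NC and 3.55, 1.91 and 3.19 FPKM in siPrp19. In all 3 the groups overlapped, and 86.8%, 83.9% and 74.0% of their coding bases were shared with another gene. Of their 75-base windows, 14.7%, 68.3% and 61.9% also occur in other genes. The 7 nuclear core subunits of complex I had a median difference of 0.10, and 6 of them were above 0. The 9 members assigned to the NADH-oxidising module had a median of 0.03, the 5 of the ubiquinone module 0.10 and the 22 accessory subunits of the membrane arm 0.08.

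Complex II, succinate dehydrogenase, was the complex with a median below 0, and its 4 genes divided evenly. SDHD, the small membrane anchor subunit (ENSG00000204370, chr11:112086773-112120013 in hg38), was at 16.1, 16.8 and 14.7 FPKM in NC and at 11.5, 14.8 and 11.8 FPKM in siPrp19. It was lower in 3 of 3 pairs, with means of 15.9 ± 1.07 and 12.7 ± 1.79 FPKM (SD, n = 3), although the highest siPrp19 sample just exceeded the lowest NC sample. The log2 difference of -0.32, or 20.2% lower, had an adjusted p of 0.0069 in the paired fit on reads and 0.9999 in limma without a block. In GENCODE 29, 65.8% of its coding bases lie in exons of AP002884.3, an overlapping protein-coding gene on the same strand, and the part of that overlap in the difference was not tested. Of the 75-base windows of its transcript, 22.3% also occur in other genes, and 13.3% occur in pseudogenes. SDHA, the flavoprotein, was at 13.9, 15.99 and 15.0 FPKM in NC and 12.5, 15.2 and 14.4 FPKM in siPrp19, lower in 3 of 3 pairs by a mean of -0.10. The iron-sulfur subunit SDHB was at 13.9, 15.7 and 17.8 FPKM in NC and 14.1, 17.3 and 19.7 FPKM in siPrp19, higher in 3 of 3 pairs by a mean of 0.10. SDHC, the other anchor, was at 6.42, 5.995 and 7.70 FPKM in NC and 6.93, 6.09 and 7.89 FPKM in siPrp19, a difference of 0.06. None of SDHA, SDHB and SDHC had an adjusted p under 0.05 in any fit.

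Complex III, the cytochrome bc1 complex, had no member past the threshold in any fit. UQCRFS1, the Rieske iron-sulfur protein, was at 12.4, 12.2 and 15.5 FPKM in NC and 12.3, 13.9 and 17.5 FPKM in siPrp19. UQCRC1, a core protein of the matrix side, was at 27.0, 26.9 and 21.4 FPKM in NC and 23.6, 27.1 and 21.6 FPKM in siPrp19. UQCRB, which lies near the ubiquinone site, was at 20.4, 22.4 and 17.8 FPKM in NC and 20.3, 23.9 and 19.7 FPKM in siPrp19. These had log2 differences of 0.12, -0.05 and 0.08, and in each the groups overlapped. The small subunit UQCRQ was at 65.7, 55.1 and 83.5 FPKM in NC and 57.0, 54.3 and 81.1 FPKM in siPrp19 (difference -0.09). For UQCR11, 100% of the coding bases are shared with AC005943.1 and 23.7% of the 75-base windows occur in other genes. UQCR11 was at 8.06, 6.78 and 8.91 FPKM in NC and 7.08, 6.39 and 8.75 FPKM in siPrp19 (difference -0.10). Both were lower in 3 of 3 pairs with overlapping groups. The retrocopy UQCRHL had the most positive difference of the complex, 0.17, from 3.09, 3.86 and 3.50 FPKM in NC and 2.99, 4.74 and 4.197 FPKM in siPrp19, with pair 1 the other way.

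Complex IV, cytochrome c oxidase, had a median SD between samples of 0.13 in NC and 0.11 in siPrp19 on the log2 scale, beside 0.24 and 0.26 over all genes. The complex lay at a median of 52.9 FPKM against 5.76 over all genes, and no background at like level was used. COX4I1, the main regulatory subunit, was at 47.1, 51.4 and 49.03 FPKM in NC and 46.1, 51.6 and 49.4 FPKM in siPrp19, a difference of -0.01 with an SE of 0.11. COX5B, which binds zinc, was at 56.1, 56.4 and 55.0 FPKM in NC and at 57.5, 58.3 and 58.6 FPKM in siPrp19. Its groups did not overlap, yet the difference was only 0.06, 4.13% (exact permutation p = 0.1). COX5A was at 59.7, 52.3 and 63.3 FPKM in NC and 63.2, 57.9 and 66.3 FPKM in siPrp19, higher in 3 of 3 pairs by 0.10 with overlapping groups. COX7A2L, which takes part in supercomplexes of complexes III and IV, was at 20.3, 25.004 and 20.5 FPKM in NC and 22.02, 25.4 and 21.6 FPKM in siPrp19. Below 0 stood COX6A1, at 27.3, 22.6 and 25.5 FPKM in NC and at 19.9, 20.2 and 23.1 FPKM in siPrp19. Its difference of -0.25 was negative in 3 of 3 pairs but the groups overlapped, and the adjusted p was 0.060 in the paired fit on reads. For COX6A1, 53.5% of the coding bases are shared with the overlapping gene AL021546.1. Of its 75-base windows, 37.1% also occur in other genes, and 27.3% occur in pseudogenes. COX7C was at 131, 131 and 116 FPKM in NC and 111, 127 and 113 FPKM in siPrp19, a difference of -0.11.

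Complex V had 10 of 19 members higher in 3 of 3 pairs, the most of any complex by count. ATP5PB, subunit b of the peripheral stalk (ENSG00000116459, chr1:111448864-111462773 in hg38), was at 45.2, 48.98 and 48.0 FPKM in NC and at 51.6, 55.8 and 51.8 FPKM in siPrp19. The groups did not overlap, with means of 47.4 ± 1.96 and 53.1 ± 2.40 FPKM (SD, n = 3), a log2 difference of 0.16 and an adjusted p of 0.038 in the paired fit on reads. The subunit c gene ATP5MC2 (ENSG00000135390, chr12:53632726-53677408 in hg38) was at 47.6, 49.1 and 40.3 FPKM in NC and at 53.8, 53.5 and 46.1 FPKM in siPrp19. Replicate 3 was the lowest in both groups, so the groups overlapped, but it was higher in each pair by 0.12 to 0.19 and the adjusted p was 0.031 in the paired fit on reads. In limma without a block the adjusted p of both genes was 0.9999. ATP5F1C, the central shaft subunit gamma, was at 80.8, 82.9 and 82.9 FPKM in NC and 91.1, 92.5 and 88.1 FPKM in siPrp19, with no overlap and a difference of 0.14 (adjusted p = 0.075 in the paired fit on reads). The catalytic subunit ATP5F1B was at 299, 300 and 273 FPKM in NC and 303, 324 and 291 FPKM in siPrp19, a difference of 0.07.

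**Figure D4:**
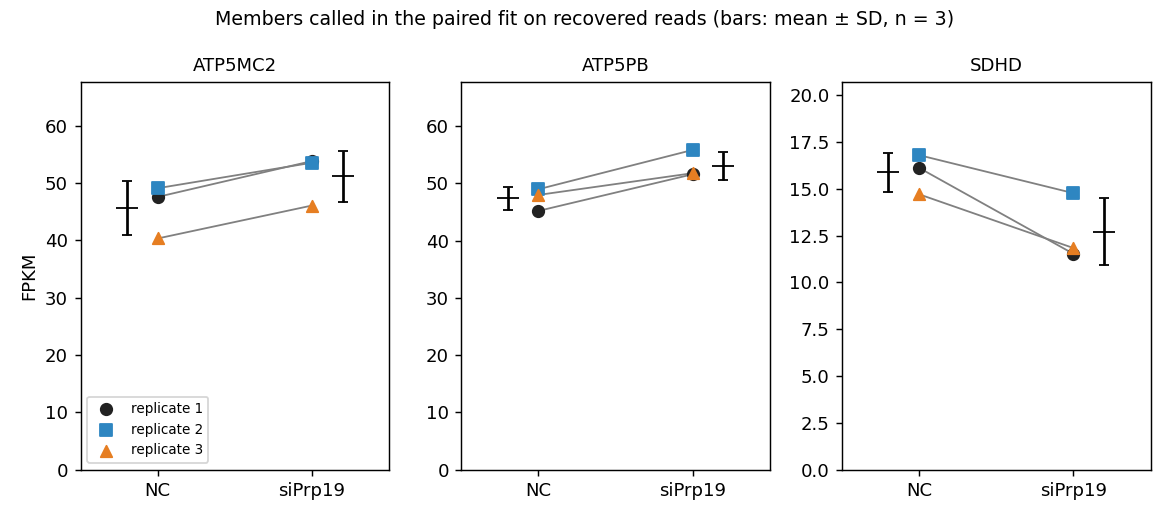
FPKM in each sample (vertical axis from 0) of ATP5MC2, ATP5PB and SDHD, which were called in the paired fit on recovered reads, with grey lines joining same-numbered NC and siPrp19 samples and black bars for the mean ± SD of 3. ATP5PB has no overlap between the groups, ATP5MC2 is higher within each pair, and SDHD is lower within each pair.

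Other stalk and membrane subunits of complex V went both ways. ATP5PF, coupling factor 6 of the peripheral stalk, had the most positive difference of the complex, 0.20, from 29.1, 26.9 and 41.0 FPKM in NC and 34.9, 32.8 and 42.0 FPKM in siPrp19. ATP5PO, at the top of the same stalk, was at 6.05, 4.07 and 4.46 FPKM in NC and 4.89, 3.81 and 3.78 FPKM in siPrp19, a difference of -0.21. ATP5PD, a further stalk subunit, was at 26.8, 29.02 and 31.5 FPKM in NC and 26.5, 26.9 and 30.8 FPKM in siPrp19, a difference of -0.05. Subunits of the same stalk thus had differences of both signs. ATP5ME, a small membrane subunit, was at 17.3, 12.5 and 17.6 FPKM in NC and 11.8, 12.1 and 16.4 FPKM in siPrp19. Its difference of -0.23 came mainly from pair 1, which gave -0.54. The inhibitor of the synthase, ATP5IF1, was at 33.8, 37.3 and 39.7 FPKM in NC and 38.7, 38.5 and 43.9 FPKM in siPrp19, higher in 3 of 3 pairs by 0.13. The 5 subunits of the catalytic head and central stalk had a median difference of 0.07, and the 12 of the peripheral stalk and membrane part 0.06.

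Members with shared coding bases were more often below 0 than the others, which is given as a description without a test. Among the 13 with at least 50% shared on the same strand, the median difference was -0.10 and 6 were above 0, and among the other 69 it was 0.07 and 51 were above 0. The 3 members with an unadjusted p under 0.05 and a negative difference in the blocked fit, SDHD, COX6A1 and ATP5PO, all belonged to the 13. None of the 69 did so. Whether reads of the overlapping genes enter these values was not tested. Of the coding bases of ATP5ME, 44.0% overlap MYL5 on the opposite strand, and whether the counting used strand is not given in the sources used here.

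The median SD between samples of a group was larger than the median absolute difference between the groups, for members and for all genes. The median SD between samples over all members was 0.17 in NC and 0.17 in siPrp19 on the log2 scale. The median absolute difference between the groups, taken within pairs, was 0.08. These are unlike measures, since the SD between samples includes what same-numbered samples share. The median SD of the 3 within-pair differences was 0.09. Over all genes the SDs between samples were 0.24 and 0.26, the absolute difference 0.10 and the SD of the within-pair differences 0.13. The paralogs NDUFA4L2 and COX4I2 are given as examples. NDUFA4L2, a paralog of NDUFA4 known as a target of hypoxia-inducible factor, was at 121, 196 and 28.1 FPKM in NC and at 129, 179 and 35.999 FPKM in siPrp19. Replicate 3 was far below the others in both groups, so its ratio to NDUFA4 ran from 60.6% to 478%. NDUFA4, first described in complex I and now assigned to complex IV, stayed between 39.6 and 50.6 FPKM. COX4I2, the oxygen-responsive paralog of COX4I1, was at 1.32, 3.44 and 0.51 FPKM in NC and 1.84, 1.94 and 0.87 FPKM in siPrp19, lowest in replicate 3 of both groups. Its difference of 0.11 had an SE of 0.66. The median member, in contrast, lay 0.08 above its group mean in NC replicate 3 and 0.12 above it in siPrp19 replicate 3 on the log2 scale, where the median over all genes was 0.008 and 0.01.

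**Figure D5:**
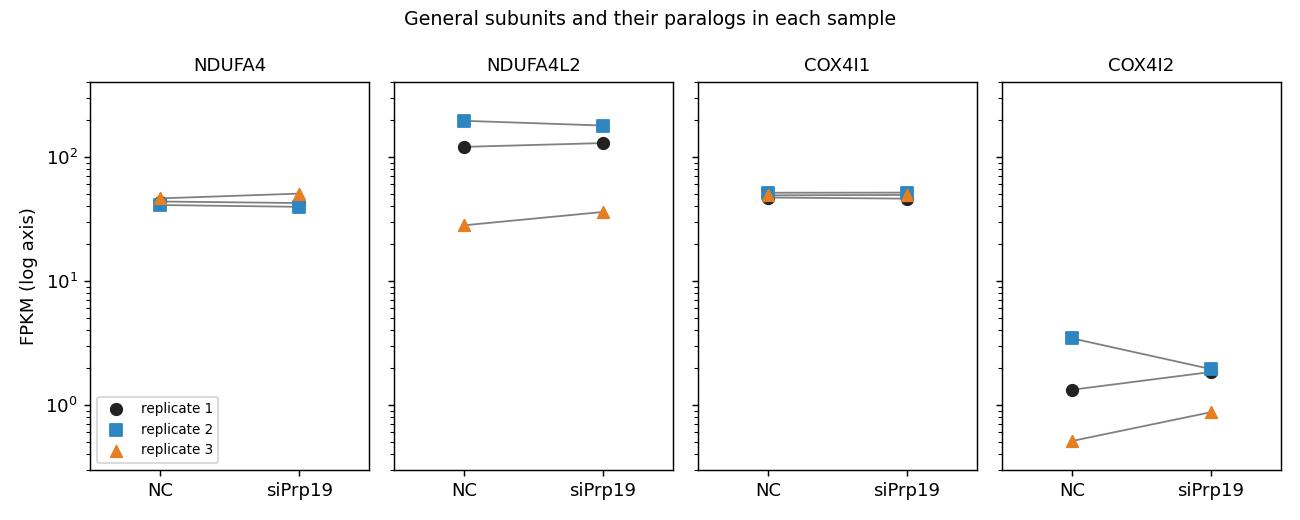
FPKM in each sample (vertical log axis) of NDUFA4, its paralog NDUFA4L2, COX4I1 and its paralog COX4I2, with grey lines joining same-numbered samples. NDUFA4 and COX4I1 stay level, while NDUFA4L2 falls from 196 FPKM in NC replicate 2 to 28.1 FPKM in NC replicate 3 with the same order in siPrp19.

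The other nuclear genes that serve the chain gave few calls in the paired fit on reads, where 7.67% of all genes passed. Of 16 assembly factors of complex I with a mean of at least 1 FPKM, 1 was called, ECSIT, at 42.9, 45.2 and 32.5 FPKM in NC and 48.8, 49.9 and 41.1 FPKM in siPrp19 (log2 difference 0.22, adjusted p = 0.011). None of the assembly factors of complexes II, III and IV, of which 4, 6 and 17 entered that fit, was called. ATPAF1, a chaperone for the catalytic beta subunit of ATP synthase, was at 8.36, 6.88 and 8.08 FPKM in NC and 6.68, 5.16 and 5.97 FPKM in siPrp19. Its groups did not overlap, and the difference of -0.39 had an adjusted p of 0.0012, the only call among 3 factors of complex V. Among 10 regulators of respiratory gene expression in that fit, TFAM, which packages mitochondrial DNA and takes part in starting its transcription, was the 1 called gene. TFAM was at 12.2, 14.3 and 13.8 FPKM in NC and 9.67, 11.9 and 11.6 FPKM in siPrp19 (difference -0.28, adjusted p = 0.0051), without overlap. NRF1 and YY1, whose motifs were counted above, had differences of -0.11 and -0.15 with adjusted p-values of 0.61 and 0.11. In limma without a block all these genes had an adjusted p of 0.9999.

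The partners of these subunits encoded in mitochondrial DNA had a median difference of -0.04 over 13 genes, of which MT-ND4, MT-CO1 and MT-ND6 were called higher in the paired fit on reads (adjusted p = 0.0038, 0.0055 and 0.030). Their levels differed more with the replicate number than with the knockdown. MT-CO1, the catalytic subunit of complex IV, was at 5314, 3894 and 8817 FPKM in NC and at 5843, 4390 and 9673 FPKM in siPrp19. The subunits and carrier outside the symbol rule, NDUFAB1, CYC1 and CYCS, had differences of 0.11, 0.13 and -0.11, and none was called.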

How the data were processed

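The authors aligned the reads to hg38 with HISAT2 2.0.5 and counted them per gene with featureCounts 1.5.0-p3, per the submitters' processing notes, and deposited FPKM per gene and sample. Filters and the handling of reads that match several genes are not given in the sources used here. The deposited FPKM were divided by median-of-ratios factors, which were 1.007 for every sample. The division thus left differences between samples almost as deposited. The values were tested as log2(FPKM + 0.1) with limma 3.58.1 in R 4.3.3 (lmFit, eBayes with trend). The test covered the 14462 genes whose mean reached 1 FPKM. The setting without the division nearly repeats this fit. Tests were two-sided, and p-values were adjusted by Benjamini-Hochberg. Changes of low genes come out too small on this scale. Whole reads were recovered from FPKM and GENCODE 29 exon lengths within 0.02 reads or a relative 0.0001 for 97.4% of 58039 genes (96.0% of those above 0) and 80 of 82 members, and tested with voom as an alternative. In voom the library size was the sum of the recovered reads, without median-of-ratios factors, so its scaling differs from that of the FPKM fits. The study's methods name no block. Same-numbered samples correlated in their deviations from the group means (r = 0.38, 0.57 and 0.64), so the numbers pair the samples, and the fit with the replicate number as a block is given where it matters. Scripts were checked on simulated data.

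The members and gene lists were chosen with earlier results of these data known. Values in every sample are given for the 3 most positive and 3 most negative members of each complex and all of complex II. They are also given for members called in any fit named for this, and for some of the core subunits and paralogs. COX5B is given as well, although it belongs to none of these sets. ATP5IF1 was added after its values were seen. A gene that the rule also names is not reported here. Coding overlap and the 75-base windows were measured on 1 representative transcript per gene, with windows searched in transcripts of other genes on both strands. RefSeq windows were matched by symbol. Among the members without a window were SDHC, ATP5F1B, NDUFB5, COX6C, NDUFC2, ATP5S, NDUFS5, UQCRHL, ATP5MC3, NDUFA4, COX4I2, UQCRB, ATP5MF, ATP5F1D and NDUFB9. Other settings were another pseudocount, no filter or 5 FPKM, other scalings, other variance models, other membership and each sample left out.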

Additional observations from a re-analysis of the deposited data

How the results depend on the processing

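The count of called members was 0 in the fit without a block, with the replicate block, and under every other pseudocount, filter, scaling, variance model and left-out sample, and it was 4 in voom on recovered reads with the replicate block. There the log2 differences of called members were -0.31 for SDHD, 0.18 for ATP5MC2 and 0.18 for ATP5PB. The block with a filter of 5 FPKM called 124 of 7913 genes, PRPF19 among them (-1.04), but 0 members. PRPF19 was also called in voom with the block (-1.03), and with samples left out it ran from -1.19 to -0.87. On recovered reads the replicate block raised the calls over all genes from 0 to 1051 of 13705, ECSIT, ATPAF1, TFAM, MT-ND4, MT-CO1 and MT-ND6 among them; on FPKM it changed no member's call. With samples or pairs left out, the median difference ran from -0.016 to 0.11 in complex I, from -0.076 to 0.033 in complex II, from 0.019 to 0.079 in complex III, from -0.0093 to 0.041 in complex IV (0.0038 without pair 3 in the replicate block, and up to 0.038 with single samples left out) and from -0.022 to 0.15 in complex V. The sign of the complex medians held under every other setting. COX4I1 turned to 0.0074 in voom and 0.0072 in voom with the block, and COX4I2 to -0.078 in voom with the block; the causes were not tested. With samples left out, signs turned for NDUFA11 (-0.33 to 0.10), SDHB (-0.011 to 0.23), SDHC (-0.036 to 0.16), UQCR11 (-0.22 to 0.00068), UQCRB (-0.010 to 0.16), UQCRC1 (-0.17 to 0.021), UQCRFS1 (-0.023 to 0.23), UQCRQ (-0.27 to 0.069), COX4I1 (-0.043 to 0.038), COX4I2 (-0.52 to 0.75), COX7A2L (-0.0031 to 0.17) and ATP5PD (-0.12 to 0.0052). In the replicate block without pair 1, UQCRC1 was at 0.013, COX4I1 at 0.0073 and COX4I2 at -0.061, and without pair 3 COX4I2 was at -0.17. With 3 samples a group the smallest exact p is 0.1. In the fit without a block the SE of a member's difference ran from 0.10 to 0.86, which limits what could be seen.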
